A study of Mus musculus with 6 samples.

Results

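Schwann cells are the glia that wrap the axons of peripheral nerves, and the genes described here are 8 of the genes that they use to specify, build and maintain that wrapping: *Mbp*, *Pmp22*, *Mag*, *Prx*, *Cnp*, *Mal*, *Sox10* and *Egr2*. They were chosen by name, as the rows of the deposited table that carry these symbols, and all 8 were found among the 14865 genes listed. RNA was sequenced from cochlear ducts of C57BL/6 mice (a line kept on C57BL/6J after its derivation on mixed 129S6 and C57BL/6J) at postnatal day 8, in 3 libraries of *Gfi1*+/+ pups and 3 libraries of *Gfi1*cre/+ pups, in which a knock-in puts Cre recombinase in place of part of exon 1 and exons 2 to 5 of one copy of *Gfi1*. Each *Gfi1*+/+ library came from both cochleae of 1 mouse, whereas each *Gfi1*cre/+ library pooled 6 cochleae of 3 mice, so that the spread between mice is averaged in only one genotype. No reporter, drug or other allele is named for these pups, and Cre under the *Gfi1* promoter was present in the heterozygotes alone.

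In peripheral nerve a myelinating Schwann cell wraps 1 segment of 1 axon, and in the central nervous system an oligodendrocyte wraps segments of many axons. Both use *Mbp*, *Mag*, *Cnp* and *Mal*, whereas *Prx* belongs to peripheral myelin, and *Pmp22* is far more prominent there than in central myelin. The axons of the spiral ganglion pass from Schwann cell myelin to oligodendrocyte myelin on their way to the brainstem. A whole-tissue level therefore adds up different cells, and fewer cells of a type cannot be told apart here from less RNA per cell.

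*Gfi1*+/+ replicate 1 stood apart from the other libraries, and the results on the 8 genes are therefore given with and without it. On the first principal component of all tested genes, which held 54.3% of the variance, it lay at -44.0 while the other 5 libraries lay between -0.30 and 16.2. Depth ranged from 13603908 to 19359753 reads on genes and was lowest in that library. The targeted gene, *Gfi1*, had 147, 160 and 152 normalized reads (reads divided by a size factor for the library) in *Gfi1*+/+ replicates 1 to 3 and 136, 130 and 139 in *Gfi1*cre/+ replicates 1 to 3. The *Gfi1* values of the genotypes did not overlap, as held for 7.52% of all genes tested. The log2 fold change was -0.18 (SE 0.0975, adjusted p = 0.999 in limma), a measure that includes reads from the part of the gene that the knock-in keeps. The Y-linked gene *Ddx3y* was at 0 in the *Gfi1*+/+ libraries and at 232 to 485 normalized reads in the *Gfi1*cre/+ libraries, so that sex and genotype cannot be told apart.

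The label was checked against markers of glia. Of 9 Schwann cell and glia markers read, 8 were listed and 7 passed the minimum of 40 normalized reads in at least 1 library, *Foxd3* being below it at 8.70 to 24.5. The summed level of the listed markers was 52512 in *Gfi1*+/+ replicate 1 and 30680 to 41420 in the other libraries, but 3 of them (*Sox10*, *Mbp* and *Egr2*) are among the 8 genes themselves. The 5 that are not summed to 28818 in that library, inside the range of 22716 to 33699 of the others, and 1 of the 5, *Fabp7*, was highest there. Most of this sum was *S100b* alone, at 25741 in that library and 20012 to 31109 in the others, so it says little about the remaining markers. *Erbb3*, *Cdh19* and *Foxd3* each lay inside the range of the other libraries. Genes of oligodendrocytes were present in 1 library above all. Of 10 named, 7 were listed and the other three were not analysed here. Their summed level was 3594 in *Gfi1*+/+ replicate 1 against 297 to 403 elsewhere, and 5 of 7 were more than 2-fold above the highest other library. *Mog*, which encodes a glycoprotein on the outer surface of central myelin, had 232 normalized reads there, 0 in the other two *Gfi1*+/+ libraries and at most 3.55 in the *Gfi1*cre/+ libraries. *Mobp*, another central myelin gene, had 2235 against 4.19 to 27.0. *Olig1* and *Olig2*, the transcription factors that mark the oligodendrocyte lineage, had 460 against 3.77 to 16.0 and 105 against 0.87 to 3.77. The summed level of 15 neuronal genes was also highest there, at 14062 against 3810 to 6524, and 10 of 15 exceeded the highest other library more than 2-fold. All 15 had a log2 fold change below 0 in *Gfi1*cre/+ against *Gfi1*+/+, beside 50.1% of all genes tested. Of the 15, 8 passed an unadjusted p of 0.05 in limma, beside 3.04% of all genes, and 0 an adjusted p of 0.05. Without *Gfi1*+/+ replicate 1, 14 of 15 were below 0, beside 50.8%, and 3 passed unadjusted, beside 2.10%. The part of these other cells in the levels of the myelin genes was not tested.

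**Figure D1:**
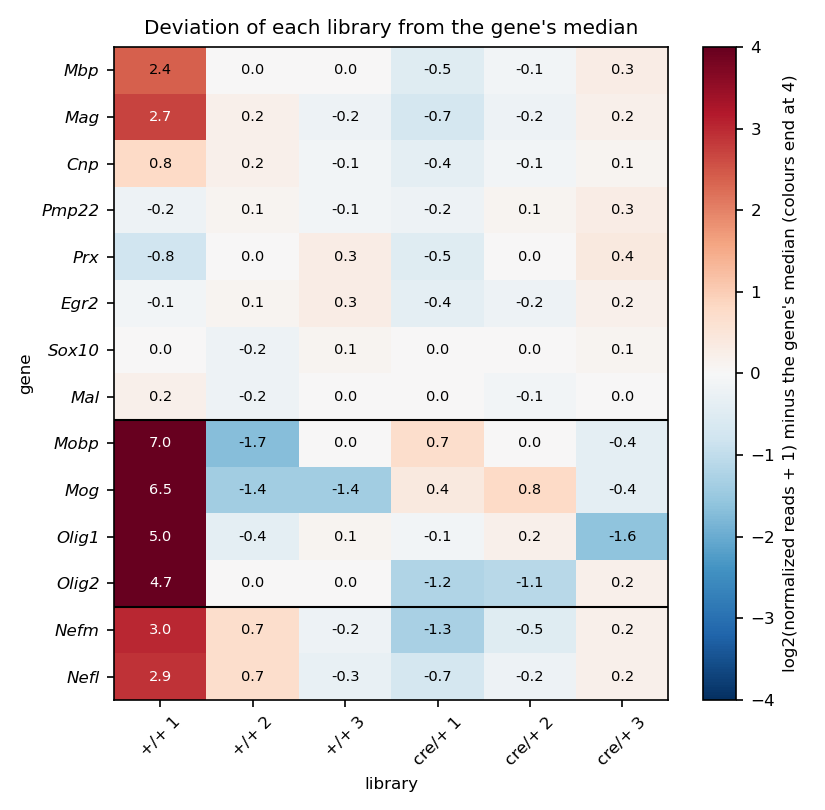
Heat map of log2(normalized reads + 1) minus the median of the gene over the 6 libraries, for the 8 Schwann cell and myelin genes, 4 oligodendrocyte genes and 2 neurofilament genes (rows) in each library (columns, named by *Gfi1* genotype and replicate). *Mbp*, *Mag* and to a smaller extent *Cnp* are high in the first *Gfi1*+/+ library with the oligodendrocyte and neurofilament genes, while *Prx* is low there.

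Over the 6 libraries *Mag* and *Cnp* varied together (Pearson's r = 0.98), as did *Prx* and *Pmp22* (0.86). Without *Gfi1*+/+ replicate 1 these pairs were not separate, since r of *Pmp22* was 0.87 with *Mag*, 0.83 with *Cnp* and 0.82 with *Prx*. Promoter sequence is shown for these 4 genes. Each is the stretch from 250 to 51 bases before the most upstream RefSeq start (build GRCm38.p6), 5′ to 3′ on the strand of the gene, and none overlaps an annotated exon. The stretches are chr7:30914973-30915172 for *Mag* (minus strand), chr11:100574689-100574888 for *Cnp* (plus strand), chr7:27499074-27499273 for *Prx* (plus strand) and chr11:63128732-63128931 for *Pmp22* (plus strand). Capitals mark ACAAAG or ACAATG, core motifs of SOX factors, on either strand.
*Mag*: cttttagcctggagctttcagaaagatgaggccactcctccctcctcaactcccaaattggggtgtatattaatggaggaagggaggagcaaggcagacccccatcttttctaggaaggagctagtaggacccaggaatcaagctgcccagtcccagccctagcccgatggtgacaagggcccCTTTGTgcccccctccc
*Cnp*: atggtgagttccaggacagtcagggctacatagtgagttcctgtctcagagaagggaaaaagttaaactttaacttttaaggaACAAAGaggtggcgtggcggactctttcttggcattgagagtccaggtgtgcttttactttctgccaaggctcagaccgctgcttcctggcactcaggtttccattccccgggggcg
*Prx*: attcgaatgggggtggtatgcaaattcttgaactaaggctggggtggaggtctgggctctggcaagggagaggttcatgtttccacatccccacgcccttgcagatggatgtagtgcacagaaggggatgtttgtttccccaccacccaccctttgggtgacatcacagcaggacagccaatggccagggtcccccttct
*Pmp22*: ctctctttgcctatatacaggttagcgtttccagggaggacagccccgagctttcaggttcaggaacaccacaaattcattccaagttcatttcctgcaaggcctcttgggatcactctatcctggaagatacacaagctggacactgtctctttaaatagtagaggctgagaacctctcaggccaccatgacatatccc

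The RefSeq promoter table matched 6 of the 8 genes, with no entry used for *Mbp* or *Sox10*. A SOX motif was found once in *Mag*, where it starts 67 bases before the RefSeq start and is read on the opposite strand, and once in *Cnp*, 167 bases before it. No such letters stood in the same stretch of *Prx*, *Pmp22*, *Mal* or *Egr2*, and 21.4% of 27018 promoters held the motif. GTGGGCG, a core motif of EGR factors, stood in none of the 6 stretches and in 4.90% of all promoters. A match is a description of letters, and binding was not measured.

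Levels between the genes are comparable only per length, as normalized reads per kb of annotated exons (all transcripts of a gene merged). Without *Gfi1*+/+ replicate 1, the order of mean levels per kb over the 5 libraries was *Pmp22* (1804), *Sox10* (1587), *Mal* (1022), *Cnp* (433), *Mbp* (399), *Prx* (204), *Mag* (46.4) and *Egr2* (34.5). Among neighbours in this order, *Pmp22* and *Sox10* overlapped between libraries, as did *Cnp* and *Mbp*, and *Mag* and *Egr2*. The ranges of *Sox10* and *Mal*, of *Mal* and *Cnp*, of *Mbp* and *Prx*, and of *Prx* and *Mag* did not overlap. In *Gfi1*+/+ replicate 1 *Mbp* stood at 2228 per kb, above all others, and *Mag* at 325, above *Prx* at 114. With all 6 libraries the ranges of *Prx* and *Mag* overlapped.

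**Figure D2:**
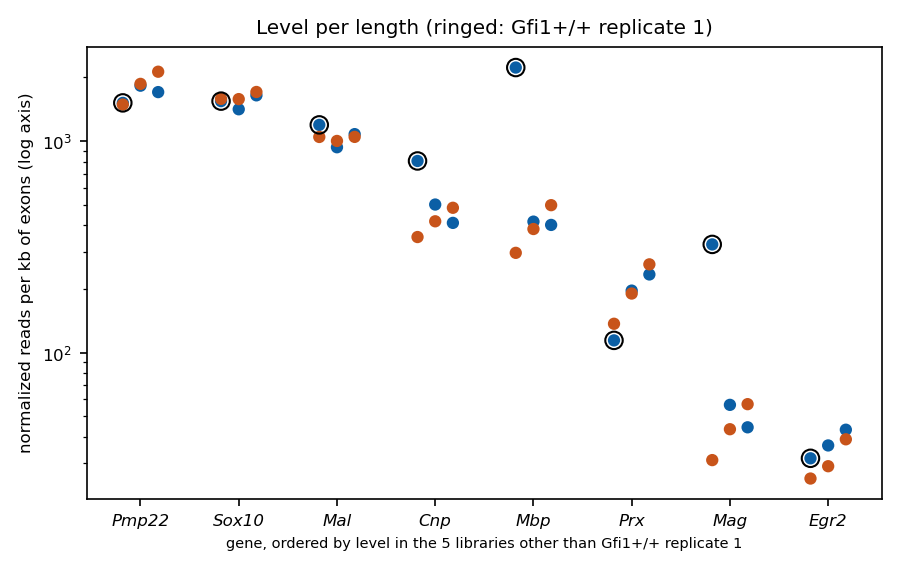
Normalized reads per kb of exons (log axis) of the 8 genes, ordered by their mean in the 5 libraries other than *Gfi1*+/+ replicate 1; each point is 1 library, blue for *Gfi1*+/+ and orange for *Gfi1*cre/+. The ringed point of *Gfi1*+/+ replicate 1 lies above the rest for *Mbp*, *Mag*, *Cnp* and, by little, *Mal*, and below them for *Prx*.

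*Mbp* (ENSMUSG00000041607, chromosome 18, 82475146 to 82585637, plus strand) encodes myelin basic protein, which draws together the inner faces of the membrane in compact myelin. In the *Gfi1*+/+ libraries, replicates 1 to 3 in order here and for each gene that follows, it reached 18871, 3524 and 3400 normalized reads, and in the *Gfi1*cre/+ libraries 2508, 3252 and 4216. The first library lay 4.48-fold above the highest of the others, and those overlapped between genotypes. The log2 fold change of *Gfi1*cre/+ against *Gfi1*+/+, on the log2(value + 1) scale in limma, was -0.91 (SE 0.564, 95% confidence interval -2.18 to 0.37, adjusted p = 0.999). Without *Gfi1*+/+ replicate 1 it was -0.090 (SE 0.174), with an interval from -0.49 to 0.31.

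*Pmp22* (ENSMUSG00000018217, chromosome 11, 63128982 to 63159547, plus strand) encodes a membrane protein of compact peripheral myelin whose dosage is altered in inherited neuropathies. Its levels were 3570, 4305 and 4015 normalized reads in *Gfi1*+/+ and 3506, 4390 and 5013 in *Gfi1*cre/+. The first library of each genotype was the lowest, and the genotypes overlapped. *Pmp22* had a log2 fold change of 0.11 (SE 0.123, 95% confidence interval -0.17 to 0.39), and of 0.034 (SE 0.129, -0.26 to 0.33) without *Gfi1*+/+ replicate 1.

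*Mag* (ENSMUSG00000036634, chromosome 7, 30899176 to 30914873, minus strand) encodes a lectin of the innermost myelin membrane, where it faces the axon. It was at 1322, 230 and 180 normalized reads in *Gfi1*+/+ and at 126, 177 and 232 in *Gfi1*cre/+. *Gfi1*+/+ replicate 1 was again far above the rest, 5.70-fold over the next library, and the other libraries overlapped. *Mag* had a log2 fold change of -1.13 (SE 0.629, 95% confidence interval -2.55 to 0.29), which was -0.24 (SE 0.229, -0.76 to 0.29) without that library.

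*Cnp* (ENSMUSG00000006782, chromosome 11, 100574904 to 100591729, plus strand) encodes the phosphodiesterase that keeps cytoplasmic channels open in non-compact myelin. It had 2932, 1824 and 1494 normalized reads in *Gfi1*+/+ and 1280, 1520 and 1761 in *Gfi1*cre/+. The first library was the highest, but only 1.61-fold over the next. Its log2 fold change was -0.41 (SE 0.217, 95% confidence interval -0.90 to 0.084), and -0.13 (SE 0.131, -0.43 to 0.17) without that library. *Cnp* shares 154 exon bases with *Dnajc7* on the opposite strand and the strand setting of the counting is not given in the sources used here, so a part of its reads cannot be assigned. *Dnajc7* itself stayed between 1655 and 1748 normalized reads in all libraries.

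*Prx* (ENSMUSG00000053198, chromosome 7, 27499324 to 27520214, plus strand) encodes periaxin, a scaffold protein of the Schwann cell that stabilizes its myelin and is not an oligodendrocyte gene. Its values were 637, 1095 and 1306 normalized reads in *Gfi1*+/+ and 763, 1061 and 1458 in *Gfi1*cre/+. Here the library with the most *Mbp* had the least of all 6. *Prx* had a log2 fold change of 0.12 (SE 0.279, 95% confidence interval -0.51 to 0.76), and the sign changed to -0.18 (SE 0.220, -0.68 to 0.32) without *Gfi1*+/+ replicate 1. *Prx* shares 300 exon bases with the antisense gene *Gm15541*, for which no value was analysed here.

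*Mal* (ENSMUSG00000027375, chromosome 2, 127633226 to 127656695, minus strand) encodes a lipid raft protein that sorts myelin proteins and is also made by epithelial cells. It had 3315, 2599 and 2998 normalized reads in *Gfi1*+/+ and 2907, 2783 and 2909 in *Gfi1*cre/+. The highest library was again *Gfi1*+/+ replicate 1, by 1.11-fold, and the *Gfi1*cre/+ values lay inside the range of the *Gfi1*+/+ values. *Mal* had a log2 fold change of -0.045 (SE 0.0838, 95% confidence interval -0.23 to 0.14), and of 0.038 (SE 0.0713, -0.12 to 0.20) without that library.

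*Sox10* (ENSMUSG00000033006, chromosome 15, 79154908 to 79165240, minus strand) encodes the transcription factor that defines the glial lineage and is needed at every step of Schwann cell life. It is also made in oligodendrocytes, melanocytes and parts of the otic epithelium. The levels were 4716, 4316 and 5023 normalized reads in *Gfi1*+/+ and 4833, 4821 and 5210 in *Gfi1*cre/+. *Gfi1*+/+ replicate 1 was neither the highest nor the lowest. The log2 fold change of *Sox10* was 0.083 (SE 0.0686, 95% confidence interval -0.073 to 0.24), and 0.089 (SE 0.0775, -0.088 to 0.27) without that library.

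*Egr2* (ENSMUSG00000037868, chromosome 10, 67535475 to 67542188, plus strand) encodes the zinc finger factor, also called Krox20, that starts and maintains peripheral myelination. It was the lowest of the 8 per length, at 107, 124 and 147 normalized reads in *Gfi1*+/+ and 86.2, 98.5 and 132 in *Gfi1*cre/+. Only *Gfi1*cre/+ replicate 3 reached into the *Gfi1*+/+ range. Its log2 fold change was -0.26 (SE 0.181, 95% confidence interval -0.67 to 0.15). Without *Gfi1*+/+ replicate 1 it was -0.37 (SE 0.189), with an interval from -0.80 to 0.062.

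**Figure D3:**
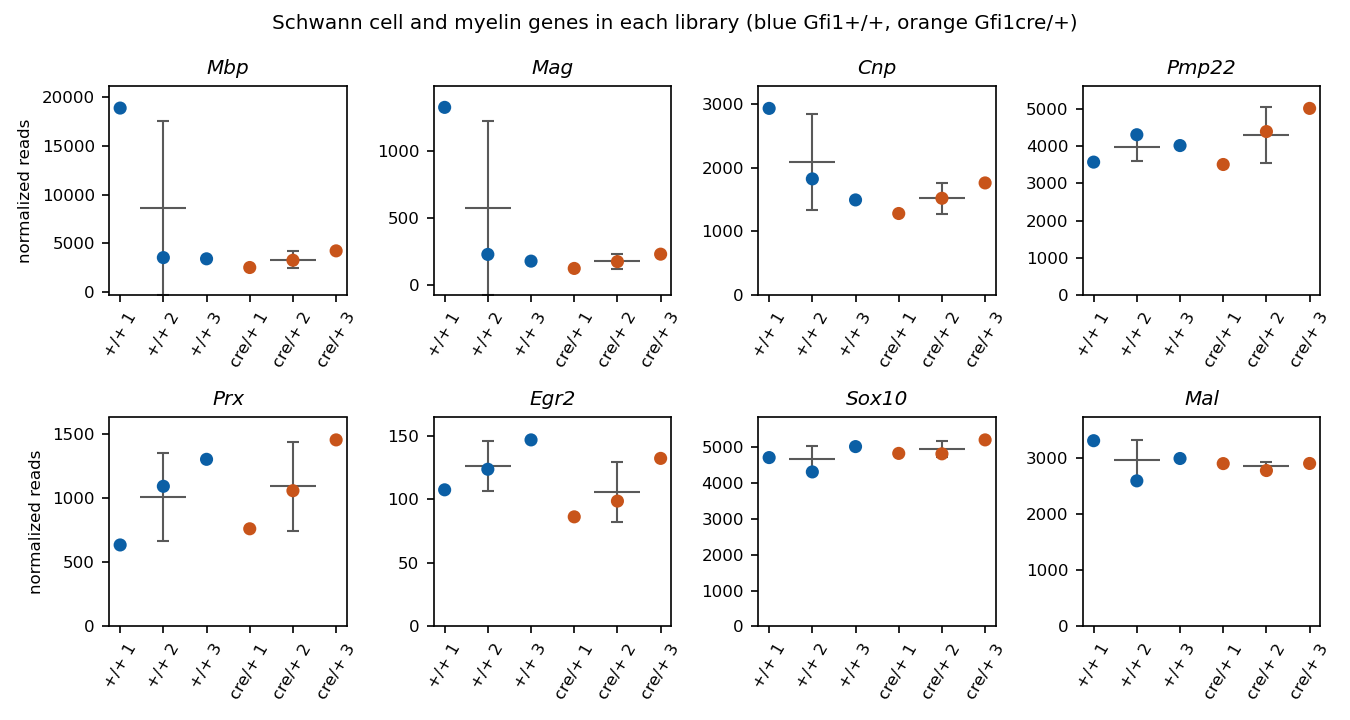
Normalized reads (linear axes) of the 8 genes in each library, blue for *Gfi1*+/+ and orange for *Gfi1*cre/+, with the mean and SD of each genotype as a bar and whiskers (n = 3). For *Mbp* and *Mag* the *Gfi1*+/+ mean is carried by 1 library, and the genotypes overlap in every panel.

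No member differed between genotypes by the test. Of the 8, 0 passed an adjusted p of 0.05 in limma (adjusted p = 0.999 for each), where 0.0277% of the 14455 genes tested did. At an unadjusted p of 0.05, 0 of 8 passed against 3.04% of all genes, and without *Gfi1*+/+ replicate 1 it was 0 of 8 against 2.10%. The genotypes overlapped in all 8, while in 7.52% of all genes they did not. Exact permutation tests over libraries, two-sided, gave p between 0.3 and 0.8 for single genes, where 3 against 3 allows no p below 0.1. The log2 fold change was below 0 in 5 of 8 genes, beside 50.1% of all genes tested, with a median of -0.15. Without the first library it was below 0 in 5 of 8, beside 50.8%, with a median of -0.11. The medians of all genes were -0.00012 and -0.0014. The counts behind these tests were 87 to 15288 reads per library.

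**Figure D4:**
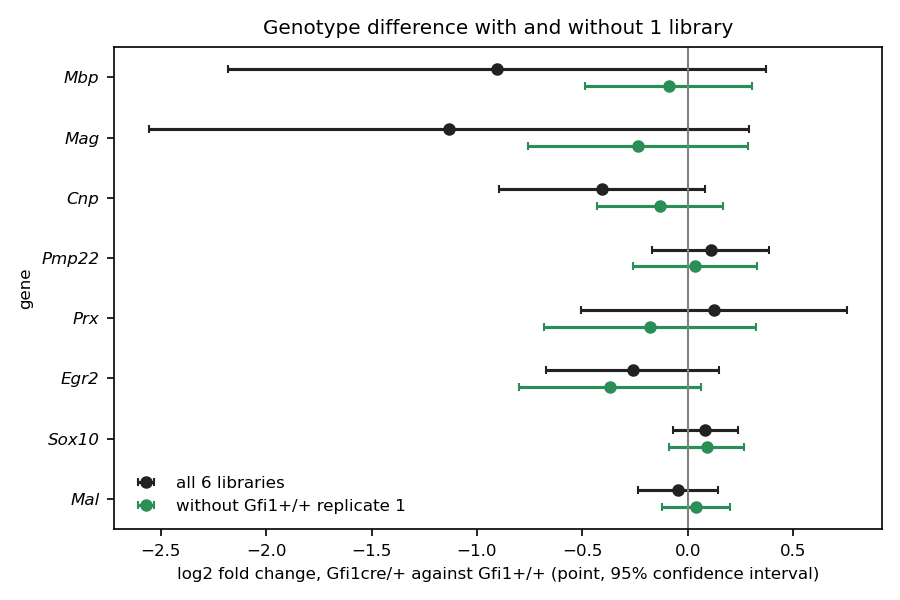
Log2 fold change of *Gfi1*cre/+ against *Gfi1*+/+ for each gene with its 95% confidence interval from limma, over all 6 libraries (black) and without *Gfi1*+/+ replicate 1 (green). All intervals include 0, and those of *Mbp* and *Mag* narrow most without that library.

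For 6 of the 8 genes the spread within *Gfi1*cre/+ was above that of the median gene. The median SD of log2 values over all genes tested was 0.119 in *Gfi1*+/+ and 0.0737 in *Gfi1*cre/+. Within *Gfi1*cre/+, where each library pools mice, *Mal* (SD 0.0366) and *Sox10* (SD 0.0636) lay below that median and the other six lay between 0.230 for *Cnp* and 0.466 for *Prx*. In those 6 genes *Gfi1*cre/+ replicate 1 was the lowest and replicate 3 the highest of the genotype, which held for 16.3% of all genes tested. *Gfi1*+/+ replicate 1 was more than 2-fold above the highest other library in 2 of 8 (*Mbp* and *Mag*), against 1.40% of all genes. It was below every other library in 1 of 8 (*Prx*), against 23.5%.

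*Nefm* encodes the medium neurofilament chain of large axons and was read in the same libraries as a measure of neuronal RNA. It had 3449, 712 and 378 normalized reads in *Gfi1*+/+ and 178, 315 and 499 in *Gfi1*cre/+, a log2 fold change of -1.68 (SE 0.695, adjusted p = 0.999 in limma) and -0.77 (SE 0.391) without *Gfi1*+/+ replicate 1. The correlation of each gene with *Nefm* over the 6 libraries is a description, since the libraries share genotype and 1 of them lies far from the rest. It was computed for all 8 members, with exact permutation tests and Benjamini-Hochberg adjustment over the 14454 other tested genes.

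*Cnp* followed *Nefm* most closely, with Pearson's r = 0.99 (exact permutation p = 0.00278, adjusted p = 0.375) and Spearman's rho = 0.94 (exact permutation p = 0.0167, adjusted p = 0.739). *Cnp* varied less than *Nefm*, its ratio to *Nefm* reads being 0.850 in *Gfi1*+/+ replicate 1 and 2.56 to 7.18 in the others. Its r was 0.97 without *Gfi1*+/+ replicate 1, and 0.92 without the 2 libraries farthest from the median of *Nefm*, which were *Gfi1*+/+ replicate 1 and *Gfi1*cre/+ replicate 1. *Mag* was similar, with r = 0.97 (exact permutation p = 0.00278, adjusted p = 0.375) and the same rho, and r = 0.96 and 0.89 in the smaller sets. *Mbp* had r = 0.95 (exact permutation p = 0.00972, adjusted p = 0.415) and the same rho, but 0.82 without the first library and 0.44 without both, so that its relation rests on those libraries. An r above 0.9 with *Nefm* was held by 390 genes, or 2.70% of all.

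The other five did not follow *Nefm* in this way. *Prx* had r = -0.42 (rho = -0.03, exact permutation p = 0.436 and 1, adjusted p = 0.740 and 1), *Pmp22* r = -0.17 (rho = 0.14, exact permutation p = 0.785 and 0.803, adjusted p = 0.911 and 0.949) and *Egr2* r = 0.20 (rho = 0.43, exact permutation p = 0.731 and 0.419, adjusted p = 0.886 and 0.806). Without *Gfi1*+/+ replicate 1 their r was 0.70, 0.71 and 0.73, while without both of the farthest libraries it was 0.04, 0.20 and 0.32. *Mal* had r = 0.55 (rho = 0.31, exact permutation p = 0.263 and 0.564, adjusted p = 0.644 and 0.870), which became -0.55 without the first library and -0.61 without both. *Sox10* had r = -0.29 (rho = -0.43, exact permutation p = 0.535 and 0.419, adjusted p = 0.793 and 0.806), and -0.34 and -0.58 in the smaller sets.

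**Figure D5:**
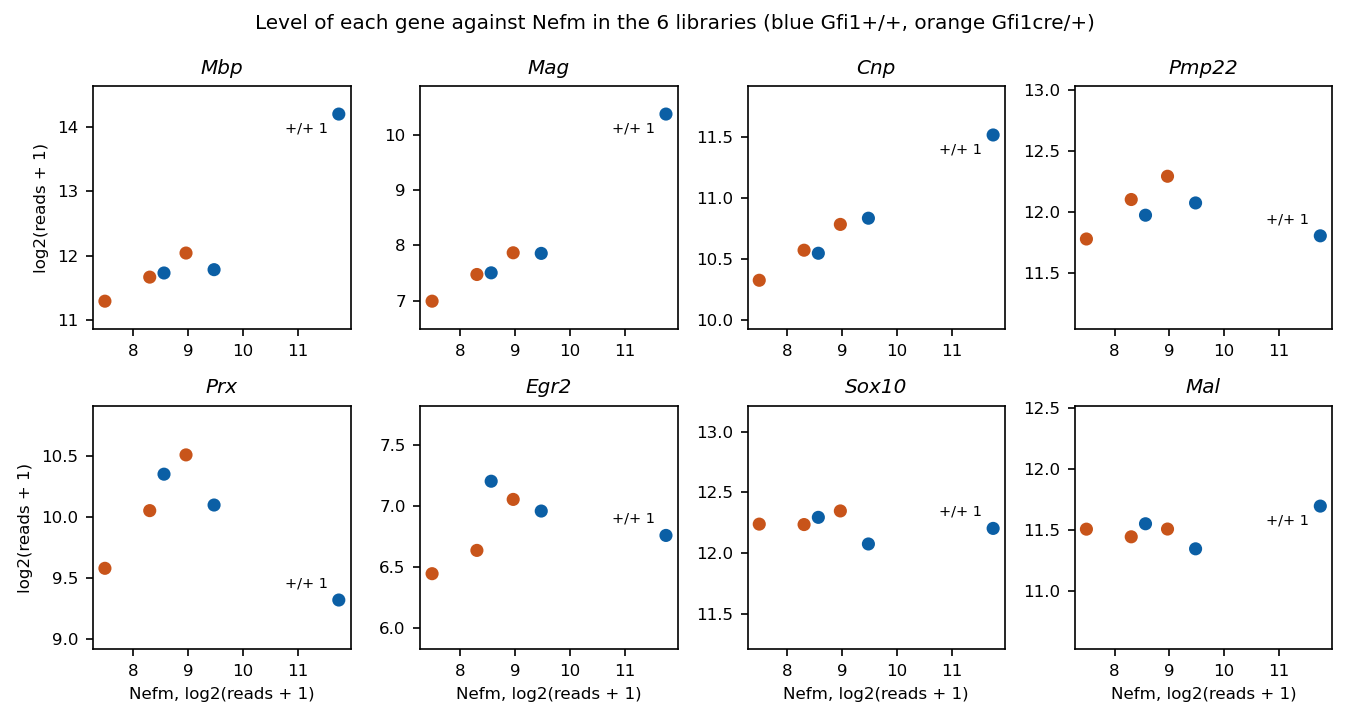
Level of each gene against *Nefm*, both as log2(normalized reads + 1), with 1 point per library, blue for *Gfi1*+/+ and orange for *Gfi1*cre/+; panels differ in their vertical range. *Cnp* and *Mag* line up with *Nefm* with and without *Gfi1*+/+ replicate 1, whereas *Prx*, *Pmp22* and *Egr2* do not over the 6 libraries (r = -0.42, -0.17 and 0.20).

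Over the 6 libraries, r of *Prx* was 0.86 with *Pmp22* and 0.72 with *Egr2*, and it was -0.55 with *Mbp* and -0.54 with *Mag*. Without *Gfi1*+/+ replicate 1 it was 0.82 and 0.89 for the first pair and 0.94 and 0.81 for the second, so that the difference between the pairs rests on 1 library. These values are a description chosen after the levels were seen. The ratio of *Mbp* to *Prx* reads was 29.6 in *Gfi1*+/+ replicate 1 and 2.60 to 3.29 in the others, 9.02-fold above the highest of them. That of *Mag* to *Prx* reads was 2.08 in that library and 0.138 to 0.210 in the others. In contrast, the ratio of *Mag* to *Mbp* reads stayed between 0.0503 and 0.0701 in all 6, and that of *Pmp22* to *Prx* reads between 3.07 and 5.60.

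Among the 28 pairs of the 8 genes, 3 had r above 0.9 over the 6 libraries (*Mbp* with *Mag*, *Mag* with *Cnp*, and *Mbp* with *Cnp*), and 12 had r below 0. Without *Gfi1*+/+ replicate 1, 4 pairs were above 0.9 and 6 below 0. *Mbp* and *Pmp22* went from r = -0.30 to 0.94 when that library was left out. The pair of *Mal* and *Sox10* had r = 0.42 and 0.89.

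The mean deviation of the 8 genes was highest in *Gfi1*+/+ replicate 1 (0.55 on the log2 scale) and lowest in *Gfi1*cre/+ replicate 1 (-0.41). In *Gfi1*+/+ replicate 1 the genes did not move as a set. *Mbp* and *Mag* lay 4.48-fold and 5.70-fold above the highest other library, *Prx* was lowest, and *Pmp22*, *Sox10* and *Egr2* were not highest. *Fa2h* followed the mean deviation most closely (r = 0.996 over 6 libraries) of the 13914 other genes whose own mean reached 40 normalized reads. *Fa2h* encodes the hydroxylase of myelin galactolipids and had 193, 103 and 96.0 normalized reads in *Gfi1*+/+ and 63.5, 88.8 and 121 in *Gfi1*cre/+. The next were *Gm14270*, *Tmem116*, *Ncdn*, *Gm11560* and *Gm6223*, with r from 0.979 to 0.992.

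Other genes of myelin were read from lists by role, and 0 passed an adjusted p of 0.05 in limma in any of them. In each list the count at an unadjusted p of 0.05 stands beside the 3.04% of all genes. Of 11 other structural myelin genes, 1 was higher in *Gfi1*cre/+ at that level and 0 were lower, with a median log2 fold change of -0.05 (-0.06 without *Gfi1*+/+ replicate 1). The 1 was *Mpzl1*, a membrane glycoprotein gene that many tissues express, with a log2 fold change of 0.15 (SE 0.0533). The largest differences of the list were those of *Gjb1* (-0.89, SE 0.425), the connexin of non-compact myelin, of *Cldn19* (-0.23), a tight junction gene of peripheral myelin, of *Ncmap* (0.22) and of *Pllp* (-0.19). *Gjb1* had 90.1 normalized reads in *Gfi1*+/+ replicate 1 and 16.9 to 33.5 in the others, and without that library its log2 fold change was -0.41. The other 3 were then at -0.51, 0.049 and -0.15.

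Of 12 genes of myelin lipid synthesis, 0 were higher and 1 lower at an unadjusted p of 0.05, and 11 of 12 had a log2 fold change below 0, as did 50.1% of all genes tested. That count was 8 of 12 without *Gfi1*+/+ replicate 1, and the median went from -0.093 to -0.044. The 1 was *Gal3st1*, the sulfotransferase that makes sulfatide, with 401, 333 and 320 normalized reads in *Gfi1*+/+ and 271, 277 and 276 in *Gfi1*cre/+. The genotypes did not overlap for *Gal3st1*, as held for 7.52% of all genes tested. Its log2 fold change was -0.35 (SE 0.0949, adjusted p = 0.999 in limma), or -0.25 without *Gfi1*+/+ replicate 1, where it again passed at the unadjusted level. *Ugt8a*, which makes the galactolipids that *Gal3st1* sulfates, had 504 normalized reads in *Gfi1*+/+ replicate 1 against 86.2 to 144, with a log2 fold change of -0.73 (SE 0.479) that was -0.071 without that library. *Fa2h* had a log2 fold change of -0.49 (-0.17 without that library), and *Aspa*, the enzyme that frees acetate for lipid synthesis, one of -0.19 (-0.098).

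Of 8 transcription factors that act with *Sox10* and *Egr2*, 0 passed in either direction, with a median log2 fold change of -0.03 (-0.06 without *Gfi1*+/+ replicate 1). *Pou3f2* (-0.46, SE 0.243) and *Pou3f1* (-0.35, SE 0.317), which promote the step to myelination, had the largest differences, followed by *Nab1* (0.13) and *Tead1* (0.079). Without that library *Pou3f2* was at -0.43, *Pou3f1* at -0.61, *Nab1* at 0.11 and *Tead1* at 0.010, so that the order of the first pair turned. Of 11 genes of immature and repair Schwann cells, 0 were higher and 1 lower at an unadjusted p of 0.05 (median -0.12, and -0.07 without that library). The 1 was *Ncam1*, an adhesion molecule that neurons share, with a log2 fold change of -0.33 (SE 0.142), and of -0.16 without that library, where it did not pass. *L1cam* (-0.85), *Gap43* (-0.75) and *Gfap* (-0.32) did not pass, and without that library their log2 fold changes were -0.34, -0.16 and 0.36, a change of sign for *Gfap*. Each of these 3 was more than 2-fold above the highest other library in *Gfi1*+/+ replicate 1, and *Gfap*, which astrocytes share, had 307 normalized reads there against 69.8 to 123. Of 12 genes of signals between axon and Schwann cell, 0 passed in either direction, with a median of 0.03 (-0.02 without that library). Their largest differences were those of *Adam22* (-0.20, SE 0.110), the receptor for the Schwann cell ligand *Lgi4*, *Itga6* (-0.072), *Lama2* (0.070) and *Erbb2* (0.063), whose product with that of *Erbb3* receives neuregulin from the axon. Without that library they were at -0.097, -0.084, 0.041 and 0.048.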

How the data were processed

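RNA of P8 cochlear ducts was sequenced by the authors with a TruSeq RNA kit as paired-end reads, aligned to mm10 with TopHat and counted per gene with HTSeq (uniquely mapped reads). The gene annotation, strand setting and versions are not given in the sources used here. The deposited values (signal) are named as quantile-normalized by the authors, but 100% of them were whole read counts divided by a size factor per library (tolerance 0.0075 reads), and are called normalized reads here. From them, limma 3.58.1 (R 4.3.3, eBayes with trend) was run on log2(value + 1) over the 14455 genes that reached 40 normalized reads in some library, with genotype as the only term and Benjamini-Hochberg adjustment. This adjusted p was called at 0.05. Depth was 13603908 to 19359753 reads on genes per library. Exon lengths and positions were taken from GENCODE M21 (GRCm38), which held 14791 of 14865 listed IDs. Alternatives were edgeR 4.0.16 and DESeq2 1.42.0 on the recovered reads, other pseudocounts, filters and scalings, a replicate block and each library left out.

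The members, the lists by role and the markers were chosen with earlier results of these data known. The rule for names took the 8 members, *Nefm*, *Gfi1*, the genes of each role list that differed most in log2 fold change (up to 4), and the 6 genes most like the members' mean. Genes named outside it (*Ddx3y*, *Dnajc7*, *Mpzl1*, *Ncam1*, *Hmgcs1*, *Fabp7*, *Lgi4*, *Erbb3* and the markers) were chosen after their values were seen, as were the motifs. Some genes of the lists are not reported here and were left out of their counts.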

Additional observations from a re-analysis of the deposited data

How the results depend on the processing

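The number of the 8 genes called was 0 under all 17 settings. Over all genes, 4 were called in the fit described and 4 with edgeR, against 10 with DESeq2 and 0 when a gene's mean had to reach 200 normalized reads (limma, where 229 passed an unadjusted p of 0.05). Leaving out 1 library gave 0 to 48 genes, with 48 without *Gfi1*+/+ replicate 3, 8 without *Gfi1*+/+ replicate 2 and 0 without *Gfi1*cre/+ replicate 3 (248 at an unadjusted p of 0.05 in limma). Of 135 recomputed log2 fold changes, 130 kept their direction and call. The sign turned for *Pmp22* (-0.010 without *Gfi1*cre/+ replicate 3), *Prx* (-0.18 without *Gfi1*+/+ replicate 1, -0.11 without *Gfi1*cre/+ replicate 3) and *Mal* (0.041 with array weights, 0.038 without *Gfi1*+/+ replicate 1). With 1 library left out these 3 ranged from -0.010 to 0.25, from -0.18 to 0.36 and from -0.14 to 0.038. Correlations with *Nefm* turned in 7 of 32 cases: *Pmp22* (0.14 as rho, 0.20 without the 2 farthest libraries, 0.71 without *Gfi1*+/+ replicate 1), *Prx* (0.042 and 0.70 in the latter 2 cases) and *Mal* (-0.61 and -0.55). The cause was not tested. Unadjusted p fell under 0.05 without *Gfi1*+/+ replicate 3 for *Mbp* (log2 fold change -1.33), *Mag* (-1.67) and *Cnp* (-0.62), and in 5 other cases among the settings run for *Mag*, *Pmp22*, *Sox10* and *Egr2*. One of these cases was *Sox10* (0.13) in that same fit, so that 4 of 8 passed there. In that limma fit 2340 of all 14455 genes passed as well, against 439 with all 6 libraries. The lowest adjusted p of any member was 0.155 in limma.

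The replicate block called 4 genes and 0 of the 8. Same-numbered libraries correlated by -0.0944, 0.107 and -0.0326, and 1 of 3 correlated best with its own number, so the numbers were not taken as pairs. *Egr2*, with 87 to 140 reads, has the fewest reads of the 8 and was not in the fit on genes whose mean reached 200.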

Other observations

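Of 12 genes of myelin lipid synthesis, 9 were highest in *Gfi1*+/+ replicate 1, as were 24.9% of all genes tested. Among them *Hmgcs1*, an early enzyme of cholesterol synthesis, had 2365 normalized reads there against 1470 to 1673 in the other libraries. The summed level of the melanocyte markers was 21374 in that library against 21107 to 23021, and that of the macrophage markers 3943 against 3858 to 4419. The summed hair cell markers stood at 7175 against 7020 to 7531. The summed epithelial markers (16551 against 17171 to 17374) and fibroblast and mesenchyme markers (160780 against 172700 to 197310) were lowest in *Gfi1*+/+ replicate 1. Few single genes were. Of the epithelial markers only *Cdh1* was lowest there (8625.5 against 9448 to 9833), and *Epcam* was highest. Of the fibroblast and mesenchyme markers only *Col1a1* and *Col1a2* (75861 against 88584 to 99298) were lowest, and *Lum* was highest (17317 against 13514 to 15491). The remaining markers of both lists lay inside the range of the other libraries.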
